A study of Mus musculus with 3 samples.

Results

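Medullary thymic epithelium contains small populations of mimetic cells, which take on programmes of cells found elsewhere in the body, each under a transcription factor that fixes the same lineage in its tissue of origin. Described here are 8 such factor genes, taken by symbol from the 22609 gene entries of the deposited table. Spib stands for microfold cells of the gut lining, Hnf4a and Hnf4g for enterocytes and hepatocytes, Ptf1a for pancreatic acinar cells and Grhl1 for keratinocytes. Atoh1 stands for secretory cells of the gut and for Merkel cells of the skin, and Neurod1 and Insm1 stand for endocrine cells. Mimetic cells display the antigens of these lineages to developing thymocytes, so that self-reactive cells can be removed.

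RNA was sequenced in 3 sorted epithelial populations of C57BL/6 mice, with 1 library each. Medullary epithelial cells (mTEC) were sorted as CD45-negative, EpCAM-positive, Ly51-negative cells that bind the lectin UEA1. Cortical epithelial cells (cTEC) were sorted from the same thymic preparation as CD45-negative, EpCAM-positive, Ly51-positive cells that do not bind UEA1. Both came from the pooled thymi of 14 mice at postnatal day 7. Epidermal epithelial cells (skinEC) were sorted as EpCAM-positive, CD11c-negative cells from the trunk and back of 7 newborn mice, so the skin differs from the thymic libraries in age as well as in tissue. No genotype other than the strain and no treatment is given. Each library is a pool and stands alone, so differences have no replicate check and no test, and the mimetic cells are a minority whose RNA is averaged with that of all other cells in the sort. In such bulk values, fewer cells of a type and less RNA per cell cannot be told apart.

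Levels are in RPKM, reads normalised to the length of the gene model and to the number of mapped reads, which allows genes to be compared per length. The steps of low values put the mapped reads at about 55500000 in mTEC. For cTEC and skinEC the search was held near that estimate and gave about 56600000 and 55900000. Whether the 3 depths are alike was therefore not tested. At these depths, 3 reads on 1 kb equal 0.0541, 0.0530 and 0.0537 RPKM in mTEC, cTEC and skinEC. A 4-fold difference was called where log2((RPKM + 1) / (RPKM + 1)) reached 2 in size, over the 16869 entries with at least 1 RPKM in any library. The labels matched their defining genes. Aire, the regulator of tissue-restricted antigens in mTEC, was at 1129 RPKM in mTEC, 1.2 RPKM in cTEC and 0.148 RPKM in skinEC. Psmb11, the thymoproteasome subunit that marks cTEC, was at 1.66, 261 and 0.0632 RPKM in mTEC, cTEC and skinEC. Krt10, a keratin of differentiated epidermis, was at 63.4, 5.65 and 1998 RPKM in that order.

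The promoters of the members fell into CpG-poor and CpG-rich ones, a property that the choice of genes did not use. RefSeq start sites of build GRCm38.p6 gave 8 windows for 6 members, each from 250 bases before to 50 bases after a start, with several starts for Hnf4a and Grhl1. Hnf4g and Insm1 had none in the table used. The windows below show both kinds, with every CG dinucleotide in capitals. They are Spib (chr7:44532022-44532321, minus strand), the upstream start of Hnf4a (chr2:163506607-163506906, plus strand), Ptf1a (chr2:19445413-19445712, plus strand) and Neurod1 (chr2:79456587-79456886, minus strand).
Spib: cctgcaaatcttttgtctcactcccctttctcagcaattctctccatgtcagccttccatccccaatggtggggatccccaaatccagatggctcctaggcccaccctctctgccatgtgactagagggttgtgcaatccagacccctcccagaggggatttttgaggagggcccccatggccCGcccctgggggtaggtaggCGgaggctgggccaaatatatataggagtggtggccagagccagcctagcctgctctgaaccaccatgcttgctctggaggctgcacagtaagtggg
Hnf4a: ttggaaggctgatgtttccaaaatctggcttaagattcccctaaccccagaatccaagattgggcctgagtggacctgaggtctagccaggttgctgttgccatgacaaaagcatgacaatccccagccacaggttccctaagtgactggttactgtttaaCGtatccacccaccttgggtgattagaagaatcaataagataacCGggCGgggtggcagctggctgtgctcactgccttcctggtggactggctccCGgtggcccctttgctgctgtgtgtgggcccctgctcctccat
Ptf1a: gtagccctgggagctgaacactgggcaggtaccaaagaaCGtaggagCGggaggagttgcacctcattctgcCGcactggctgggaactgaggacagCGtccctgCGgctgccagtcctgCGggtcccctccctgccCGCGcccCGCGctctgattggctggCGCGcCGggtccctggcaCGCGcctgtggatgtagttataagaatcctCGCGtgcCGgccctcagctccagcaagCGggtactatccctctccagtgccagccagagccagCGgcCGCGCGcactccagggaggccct
Neurod1: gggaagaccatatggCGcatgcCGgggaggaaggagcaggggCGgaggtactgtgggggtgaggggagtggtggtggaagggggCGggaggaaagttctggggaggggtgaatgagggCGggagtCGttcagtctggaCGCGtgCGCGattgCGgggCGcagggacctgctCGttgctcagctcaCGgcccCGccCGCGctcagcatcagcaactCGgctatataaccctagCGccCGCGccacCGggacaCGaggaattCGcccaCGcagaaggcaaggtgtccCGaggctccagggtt
Spib held 2 CG sites, an observed over expected CpG ratio of 0.0796, and the Hnf4a windows held 4 each, with ratios of 0.183 at the upstream start and 0.163 at the downstream one. Ptf1a held 23 (ratio 0.677), Atoh1 20 (ratio 0.840), Neurod1 26 (ratio 0.837) and the upstream Grhl1 start 35 (ratio 0.865), while the downstream Grhl1 start held 0. Over all 32851 promoter windows the median ratio was 0.384, with quartiles at 0.176 and 0.75. Spib and Hnf4a lay below that median, and Ptf1a, Atoh1, Neurod1 and the upstream Grhl1 start above it.

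An E-box (CANNTG, its own reverse complement), the letters bound by basic helix-loop-helix factors such as Ptf1a, Atoh1 and Neurod1, occurred in 5 of the 8 windows. It occurs in 72.3% of all promoter windows. In Spib the matches read CAGATG and CATGTG, in the upstream Hnf4a window CAGCTG, and in Neurod1 CATATG. Further letters were searched on both strands. The HNF4 element CAAAGTCCA (in 0.475% of all windows), the Ets-type element GAGGAAGT (3.2%), the Grainyhead element AACCGGTT (0.146%) and TATAAA (13.6%) matched none of the 8 windows. These are letter matches in 300 bases and say nothing of binding.

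None of the 8 factor genes is listed at 0 in mTEC, where only 7.27% of all entries are. Their levels covered a wide range. From high to low, mTEC held Spib at 204 RPKM, Insm1 at 55.0 RPKM, Grhl1 at 23.99 RPKM, Hnf4g at 7.49 RPKM, Hnf4a at 2.50 RPKM, Neurod1 at 2.04 RPKM, Ptf1a at 1.77 RPKM and Atoh1 at 0.888 RPKM. The highest was 230-fold above the lowest, and Spib alone made up 68.5% of their summed RPKM. In mTEC, 7 of the 8 were at 1 RPKM or more, against 2 in cTEC (Spib and Grhl1) and 3 in skinEC (Grhl1, Insm1 and Atoh1). Over all entries, 72.4%, 55.7% and 53.5% reached that level in mTEC, cTEC and skinEC. Ptf1a and Atoh1 are listed at 0 in cTEC, and Hnf4a, Hnf4g and Ptf1a are listed at 0 in skinEC. Of all entries, 22.1% in cTEC and 26.0% in skinEC are listed at 0. With no replicate, which neighbours in the order of levels differ beyond their spread cannot be stated.

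**Figure D1:**
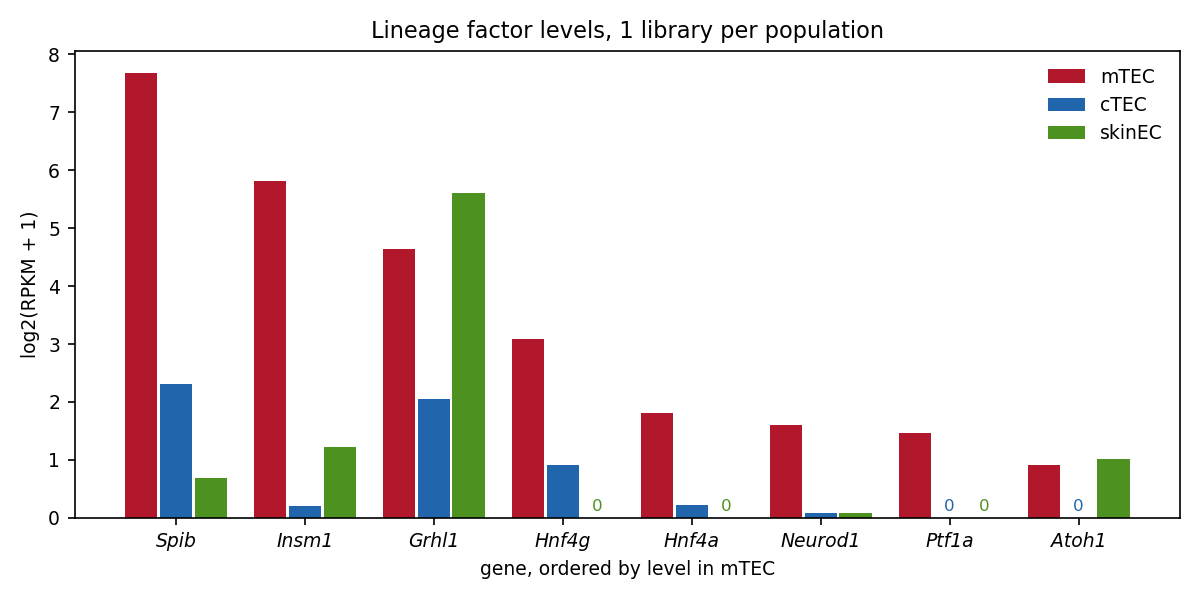
Level of each lineage factor gene as log2(RPKM + 1) in mTEC (red), cTEC (blue) and skinEC (green), 1 library per bar and no error bar since there are no replicates; 0 marks a gene listed at 0. The red bar is the tallest for 6 of the 8 genes, and Grhl1 (47.5 RPKM) and Atoh1 (1.03 RPKM) have their tallest bar in skinEC.

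Relative to cTEC, 4 members were higher by at least 4-fold in mTEC and 0 were lower, with 4 within 4-fold. Of all genes, 15.2% lay that far toward mTEC and 2.69% that far toward cTEC. The 4 were Insm1, Spib, Grhl1 and Hnf4g, and the median log2 ratio of the 8 was 1.88, against 0.08 over all genes. The count depends on the constant added to low values and on the scaling. Hnf4a, Neurod1, Ptf1a and Atoh1, all under 3 RPKM, pass 4-fold with a pseudocount of 0.1 RPKM, which counts 8 of 8 members and 4554 of the 16869 genes, while a pseudocount of 5 RPKM counts 2 members and 881 genes. With values scaled to a common sum (TPM), 7 members and 19.9% of the genes tested on that scale are counted.

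Relative to skinEC, 3 members were higher by at least 4-fold in mTEC, namely Spib, Insm1 and Hnf4g, and 0 were lower, where 16.8% of all genes lay that far above skinEC and 4.2% below it. The count is 6 with a pseudocount of 0.1 RPKM, where 5030 genes are counted, and 6 on the TPM scale, where 4321 are. This comparison uses the same mTEC library as the one with cTEC. Between cTEC and skinEC, 0 members were higher by 4-fold in cTEC and 1, Grhl1, was lower. Over all genes 6.3% were higher in cTEC and 5.82% lower, so 52.0% of the genes apart lay toward cTEC, a share of 63.1% with values scaled to a common sum.

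**Figure D2:**
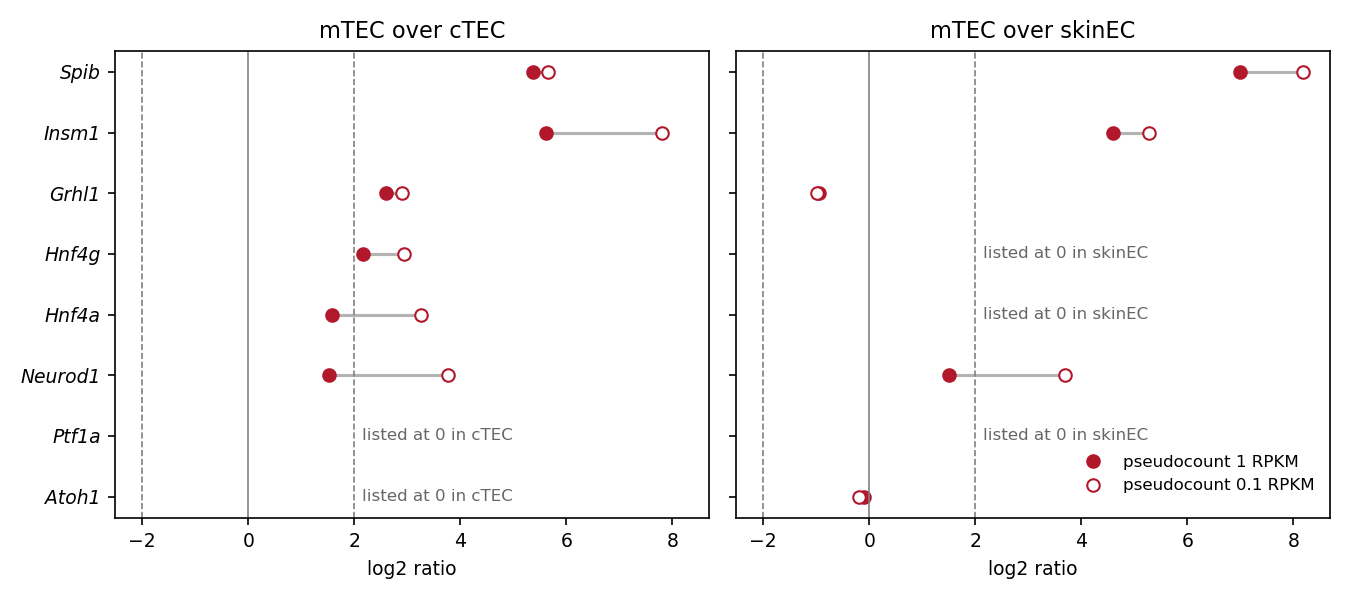
Log2 ratio of each lineage factor gene in mTEC over cTEC (left) and mTEC over skinEC (right), with a pseudocount of 1 RPKM (filled) and 0.1 RPKM (open); dashed lines mark 4-fold, and no ratio is drawn against a library where the gene is listed at 0. Spib and Insm1 lie beyond 4-fold on both sides with either pseudocount, and Grhl1 lies left of 0 against skinEC.

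Spib (Entrez 272382) encodes an Ets family factor that microfold cells of the gut need to form, and that is also known in B cells and plasmacytoid dendritic cells. It was at 204 RPKM in mTEC, 3.97 RPKM in cTEC and 0.604 RPKM in skinEC. In mTEC only 1.08% of entries lay above it, while in cTEC 45.8% did and in skinEC 56.2%. Its log2 ratio was 5.37 over cTEC and 7.00 over skinEC, which 0.848% and 0.32% of the tested genes exceeded. The other Ets genes of its class were far lower per length in mTEC. Spi1, the myeloid and B cell factor, listed under its older symbol, was at 8.67, 0.345 and 0.51 RPKM in mTEC, cTEC and skinEC. Spic, a factor of red pulp macrophages, was at 9.25 in mTEC and 0.014 RPKM in cTEC, and is listed at 0 in skinEC.

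Genes of the microfold programme lay mostly on the side of Spib. Of 13 tested, 10 were at least 4-fold higher in mTEC than in cTEC and 0 lower, with a median log2 ratio of 3.06. Tnfrsf11b, which encodes osteoprotegerin, a decoy for the cytokine RANKL, was at 75.7, 0.433 and 4.49 RPKM in mTEC, cTEC and skinEC. Tnfrsf11a, which encodes RANK, the receptor through which RANKL induces both microfold cells and mTEC maturation, was at 54.8, 0.865 and 0.153 RPKM. It is counted in the 10 though it is also among the marker genes of mTEC used to check the labels. The chemokine gene Ccl20 was at 95.2, 0.993 and 3.47 RPKM, and Pglyrp1, a peptidoglycan recognition protein gene, at 209, 3.89 and 0.131 RPKM. Gp2, the uptake receptor of mature microfold cells, was at 89.0 in mTEC and 6.39 RPKM in cTEC and is listed at 0 in skinEC. Sox8, a factor of microfold cell maturation, was at 3.85, 0.189 and 0.0119 RPKM. The broadly expressed annexin gene Anxa5 showed no such gap, at 417, 445 and 169 RPKM.

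B cell and myeloid markers moved with Spib between these libraries. At least 1 RPKM was reached by all 9 B cell markers in mTEC, by 1 in cTEC and by 0 in skinEC, with summed levels of 90.1, 5.05 and 0.567 RPKM, and 5 were at least 4-fold higher in mTEC than in cTEC. Their defining members were low in mTEC next to Spib, with Cd79a at 4.03, Ms4a1 at 2.72 and Pax5 at 1.81 RPKM. Fcer2a, at 25.6 RPKM, and Cd79b, at 35.7 RPKM, carried most of the sum. Of 7 tested markers of plasmacytoid dendritic cells, 0 were at least 4-fold higher in mTEC than in cTEC and 1, Tcf4, was lower. Their sums were 238, 275 and 24.4 RPKM in mTEC, cTEC and skinEC. Most of both thymic sums came from Irf8 (mTEC 111 RPKM against cTEC 107) and Bst2 (107 against 120). Cox6a2 (2.98 against 0.0536), Pacsin1 (3.55 against 0.868), Ccr9 (1.57 against 0.221) and Runx2 (1.27 against 0.416) were higher in mTEC but within 4-fold. Tcf4 went the other way (10.6 against 45.9). Siglech, which defines these cells, had 0.158 RPKM in mTEC but is listed at 0 in cTEC. Myeloid and dendritic markers had 7 of 9 tested genes at least 4-fold higher in mTEC, and sums of 354, 5.50 and 5.99 RPKM, of which Lyz2 was 283 RPKM in mTEC. The thymic sorts took CD45-negative cells, and Ptprc, which encodes CD45, was at 8.01, 1.07 and 0.085 RPKM in mTEC, cTEC and skinEC. The part of leukocyte RNA in the Spib level was not tested.

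Hnf4a and Hnf4g encode closely related nuclear receptors that together maintain the absorptive cells of the gut, and Hnf4a also governs liver genes. Hnf4a (Entrez 15378) was at 2.50 in mTEC and 0.17 RPKM in cTEC, a plain ratio of 14.7, and is listed at 0 in skinEC. Hnf4g (Entrez 30942) was at 7.49 in mTEC and 0.883 RPKM in cTEC, a plain ratio of 8.47, and is also listed at 0 in skinEC. Hnf4g was the higher of the pair in mTEC and in cTEC. On the log2(RPKM + 1) scale the ratios of mTEC over cTEC were 1.58 for Hnf4a and 2.17 for Hnf4g, so only Hnf4g passed 4-fold. At the lengths of their longest GENCODE M21 transcripts these levels stand for about 606 reads of Hnf4a and 966 reads of Hnf4g in mTEC, and about 42 and 116 reads in cTEC. Hnf4a has alternative starts, which a value per gene does not separate.

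The enterocyte and hepatocyte genes were higher in mTEC almost throughout. Of 23 tested, 22 were at least 4-fold higher in mTEC than in cTEC, 0 were lower and 1, the sucrase-isomaltase gene Sis, was within 4-fold, with a median log2 ratio of 3.54. The intestinal factor gene Cdx1 was at 149, 0.283 and 0.0614 RPKM in mTEC, cTEC and skinEC. Apoa1, a lipoprotein gene of liver and gut, was at 65.6, 0.215 and 0.509 RPKM. Cdhr5, which encodes a cadherin of the brush border, was at 65.3 in mTEC and 1.13 RPKM in cTEC, and Muc13, a membrane mucin gene, at 31.5 and 0.208 RPKM. In skinEC 11 of the 24 genes are listed at 0, against 0 in mTEC and 3 in cTEC.

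**Figure D3:**
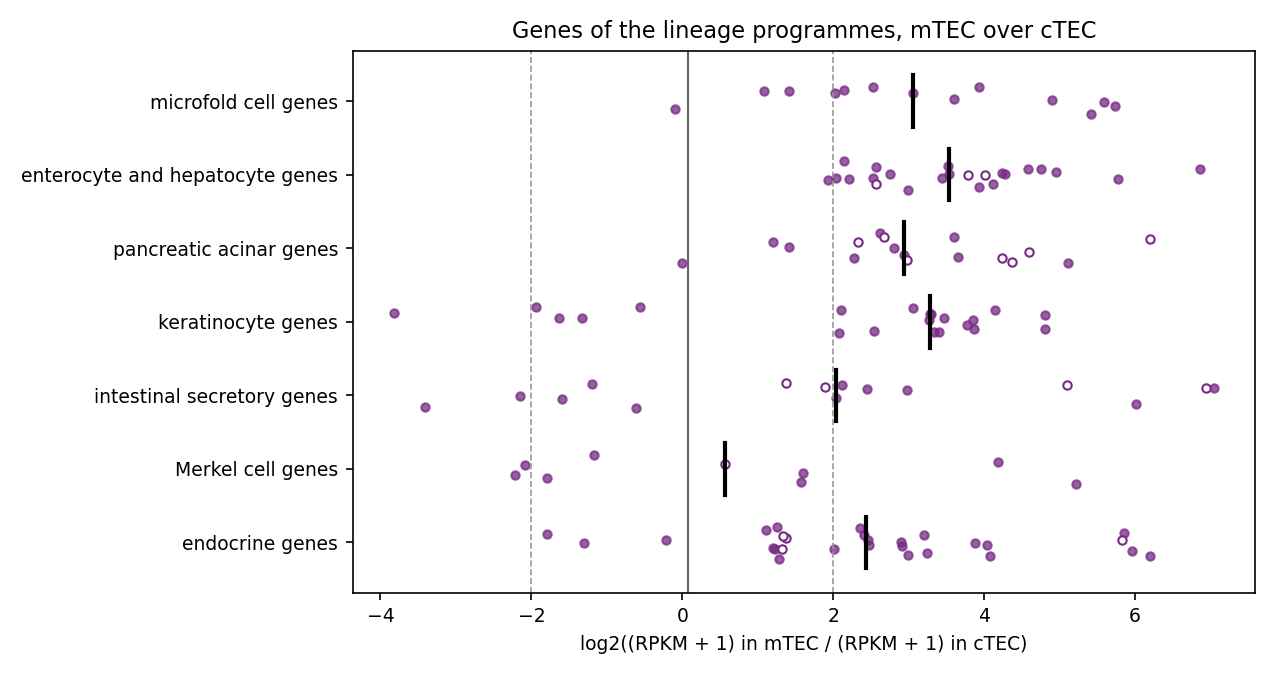
Log2 ratio of mTEC over cTEC, computed on RPKM + 1, for each tested gene of the programmes linked to the lineage factors; open points are genes listed at 0 in cTEC, black bars are list medians, the solid line is the median of all tested genes (0.08) and dashed lines mark 4-fold. Medians run from 0.57 for Merkel cell genes to 3.54 for enterocyte and hepatocyte genes.

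Ptf1a (Entrez 19213) encodes the factor that specifies the pancreas and then keeps acinar cells producing digestive enzymes. It was at 1.77 RPKM in mTEC, about 148 reads, and is listed at 0 for both other libraries, where 3 reads would have given 0.0351 and 0.0356 RPKM. GENCODE M21 places an antisense gene over 40.4% of its exon bases, and the library kit does not mark strand, so its reads cannot be split from those of that gene. Rbpjl, which encodes its partner in the acinar activator complex, was at 0.756, 0.0863 and 0.0146 RPKM in mTEC, cTEC and skinEC, below the 1 RPKM filter. Several digestive enzyme genes were more abundant per length than the factor. Of 17 tested acinar genes, 14 stood at least 4-fold higher in mTEC than in cTEC and none was lower, for a median log2 ratio of 2.94, or 2.90 with genes listed at 0 set to 3 reads on 1 kb. The chymotrypsinogen gene Ctrb1 was at 72.5 RPKM in mTEC and the colipase gene Clps at 19.6 RPKM, and both are listed at 0 outside mTEC. The zymogen granule gene Zg16 was at 23.2 RPKM in mTEC, listed at 0 in cTEC and at 0.0563 RPKM in skinEC, and the ribonuclease gene Rnase1 was at 36.3, 0.073 and 1.57 RPKM. Of the 22 acinar genes, 8 are listed at 0 in cTEC and 1, the amylase gene Amy2a5, which has close copies, in mTEC.

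Grhl1 (Entrez 195733) encodes a Grainyhead factor that drives desmosomal cadherin genes in the epidermis, and it was the only member above 10 RPKM in skin. It was at 23.99 RPKM in mTEC, 3.14 RPKM in cTEC and 47.5 RPKM in skinEC. Its log2 ratio was 2.59 in mTEC over cTEC, -0.96 in mTEC over skinEC and -3.55 in cTEC over skinEC. Of the entries, 18.6% lay above it in mTEC, 47.9% in cTEC and 10.6% in skinEC. Its paralogue Grhl3, a factor of barrier formation, was likewise lowest in cTEC, at 20.3, 0.928 and 22.4 RPKM. Its log2 ratio of mTEC over skinEC was -0.13, too small a gap to order these populations with 1 library each. Grhl2, a factor of epithelial junctions, differed from both, at 12.9 RPKM in mTEC, 26.8 RPKM in cTEC and 48.7 RPKM in skinEC. Of the more distant relatives, Tfcp2l1 was at 16.4, 2.75 and 2.09 RPKM, Tfcp2 at 8.06, 21.2 and 6.91 RPKM and Ubp1 at 35.5, 75.8 and 42.4 RPKM.

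Keratinocyte genes were split in a like way. Of 21 tested, 16 were at least 4-fold higher in mTEC than in cTEC and 1 was lower, while against skinEC 1 was higher in mTEC and 8 were lower. Dsg1a, a desmosomal cadherin gene of the differentiated epidermis, was at 44.7, 0.631 and 55.2 RPKM in mTEC, cTEC and skinEC, and its copy Dsg1b, with which it may share reads, at 17.4, 0.0363 and 11.7 RPKM. Lor, which encodes the envelope protein loricrin, was at 38.0, 0.387 and 30.3 RPKM, and Cdsn, which encodes corneodesmosin, at 15.5, 0.125 and 5.32 RPKM. Dsc3, a desmosomal cadherin gene of the basal layer, was the gene lower in mTEC, at 9.06 RPKM, against 141 RPKM in cTEC, and it was at 348 RPKM in skinEC. Trp63, the basal epithelial factor gene, was at 27.1, 107 and 292 RPKM. The 8 genes lower than in skinEC were not only basal ones. They included Krt10, the keratin gene of differentiated epidermis, at 63.4 RPKM in mTEC against 1998 RPKM in skinEC, and Krt1, at 25.6 against 1940 RPKM.

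Atoh1 (Entrez 11921) encodes a basic helix-loop-helix factor that commits gut progenitors to the secretory lineage and that Merkel cells need. It was the lowest member in mTEC, at 0.888 RPKM or about 105 reads, is listed at 0 in cTEC, where 3 reads would have given 0.0250 RPKM, and was at 1.03 RPKM or about 122 reads in skinEC. The log2 ratio of mTEC over skinEC was -0.10, and its sign changed when the libraries were scaled to a common sum or by their median ratio. Its relatives Atoh7, of the retina, and Atoh8 were at 1.20 and 4.61 RPKM in mTEC. In cTEC Atoh7 is listed at 0 and Atoh8 was at 2.66 RPKM, and in skinEC Atoh7 is listed at 0 and Atoh8 was at 1.33 RPKM.

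The programmes linked to Atoh1 did not lie on a single side. Of 15 tested intestinal secretory genes, 8 stood at least 4-fold higher in mTEC than in cTEC and 2 lower, for a median log2 ratio of 2.04. Fcgbp, a mucus protein gene, was at 457, 2.46 and 16.1 RPKM in mTEC, cTEC and skinEC, and the lysozyme gene Lyz1, which may share reads with its copy Lyz2, was at 133, 1.08 and 0.0283 RPKM. The trefoil factor gene Tff3 was at 122 RPKM in mTEC and the goblet cell gene Clca3 at 33.4 RPKM, and both were listed at 0 in cTEC. Dll4, a Notch ligand gene, and Hes6, a basic helix-loop-helix gene, were the lower pair, with 19.4 and 110 RPKM in mTEC, where cTEC held 215 and 490 RPKM. Dll4 is also among the marker genes of cTEC used to check the labels, so its lower level in mTEC is not particular to the secretory list. Of 9 tested Merkel cell genes, 2 were at least 4-fold higher and 2 lower in mTEC, with a median of 0.57. Krt20 was at 42.3, 0.165 and 5.30 RPKM and the calcium channel gene Cacna1b at 21.1, 0.218 and 0.092 RPKM in mTEC, cTEC and skinEC. Krt18 was at 833 in mTEC and 3549 RPKM in cTEC, and the neurofilament gene Nefm at 6.79 and 35.3 RPKM. Pou4f3, a factor downstream of Atoh1 in hair cells and Merkel cells, was at 0.488 RPKM in mTEC, listed at 0 in cTEC and highest in skinEC, at 2.45 RPKM.

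Insm1 and Neurod1 both act in endocrine differentiation, Insm1 as a zinc finger repressor and Neurod1 as a basic helix-loop-helix activator. Insm1 (Entrez 53626) was at 55.0 RPKM in mTEC, 0.146 RPKM in cTEC and 1.32 RPKM in skinEC. Its log2 ratio over cTEC, 5.61, was exceeded by 0.634% of the tested genes, and its ratio over skinEC was 4.59. It lay above the 5.37 of Spib, but with a pseudocount of 5 RPKM Spib was at 4.54 and Insm1 at 3.54. Neurod1 (Entrez 18012) was at 2.04 RPKM in mTEC, 0.0567 RPKM in cTEC and 0.0646 RPKM in skinEC, a plain ratio of 36.0 over cTEC and 31.6 over skinEC. The lower levels of Neurod1 stand for about 9 reads in cTEC and 10 reads in skinEC, against about 309 in mTEC. GENCODE M21 places exons of other genes over part of Neurod1, 7.37% of its exon bases from Cerkl and 5.64% from an antisense transcript, and Cerkl itself was at 1.25 in mTEC and 0.121 RPKM in cTEC.

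Relatives of Neurod1 were also read in mTEC. Neurog3, which starts endocrine differentiation in pancreas and gut, had 1.59 RPKM in mTEC but is listed at 0 in the other libraries. Neurog1 was at 4.44 RPKM, Neurod2 at 1.77 RPKM and Neurod4 at 1.01 RPKM in mTEC, and each is listed at 0 elsewhere. Neurog2, a neuronal factor gene, was at 1.63 in mTEC and 0.00797 RPKM in cTEC and is listed at 0 in skinEC. Neurod6 and Ferd3l stayed at 0.0837 and 0.102 RPKM in mTEC and are listed at 0 elsewhere, and Bhlha15, a factor of secretory cells, was at 0.361, 0.415 and 0.0512 RPKM in mTEC, cTEC and skinEC. Insm2 was at 1.06 RPKM in mTEC, listed at 0 in cTEC and at 0.0231 RPKM in skinEC. Of the 18 relatives read for all members, 15 were tested, 5 of which (Grhl3, Spic, Spi1, Neurog1 and Tfcp2l1) were at least 4-fold higher in mTEC than in cTEC and 0 lower.

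**Figure D4:**
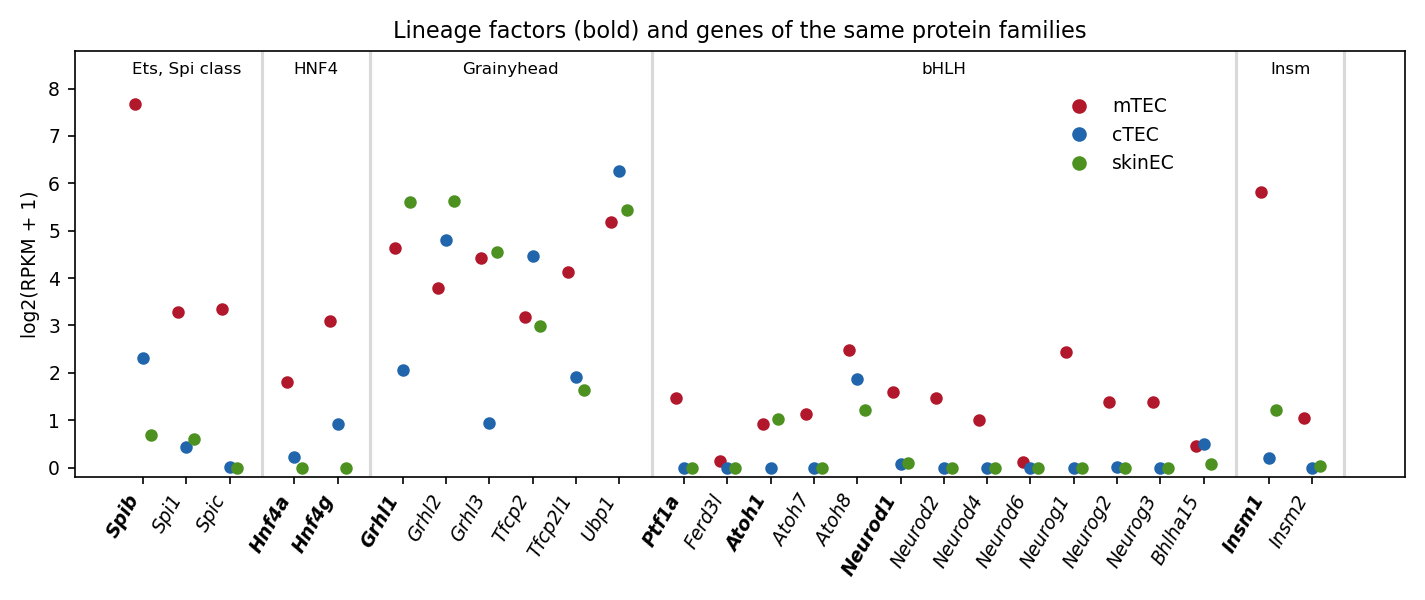
Levels of the lineage factor genes (bold) and of genes from the same protein families as log2(RPKM + 1) in mTEC (red), cTEC (blue) and skinEC (green), 1 library per point. Spib and Insm1 stand above their relatives in mTEC, while Grainyhead genes have reads in all 3 libraries.

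Endocrine genes lay toward mTEC. Of 28 tested, 17 were at least 4-fold higher in mTEC than in cTEC, 0 were lower and 11 were within 4-fold, with a median log2 ratio of 2.44. Resp18, a secretory granule gene, was at 120 in mTEC and 0.647 RPKM in cTEC and is listed at 0 in skinEC. Among hormones, somatostatin (Sst) was at 65.3 in mTEC and 0.059 RPKM in cTEC, and secretin (Sct) at 65.2 in mTEC and 0.139 RPKM in cTEC. Gip, an incretin gene, had 56.0 RPKM in mTEC but is listed at 0 in the other libraries. Chga, the chromogranin A gene used as a general endocrine marker, did not follow them, at 77.3 in mTEC and 89.7 RPKM in cTEC. Isl1, a factor of endocrine and Merkel cells, was at 12.1 in mTEC and 44.7 RPKM in cTEC. Neural and Schwann cell markers, of which 2 of 7 tested were at least 4-fold higher in mTEC, summed to 31.2, 11.5 and 4.56 RPKM in mTEC, cTEC and skinEC, and their part in the endocrine values was not tested.

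Across the 7 programmes, 88 of 123 tested genes lay at least 4-fold higher in mTEC than in cTEC and 5 were lower, 71.5% against the 15.2% of all genes. The median log2 ratio was 2.90. The lists name genes known from the tissues of origin, and some were already seen to be high in mTEC, so the count is a description of these lists. In every list but that of Merkel cell genes, all tested genes reached 1 RPKM in mTEC, and in every list fewer did so in cTEC. The genes left out by the filter were under 1 RPKM in every library. Leaving them out changed no count past 4-fold but raised the shares. Over all genes above 0 in any library, 12.2% were at least 4-fold higher in mTEC than in cTEC without the filter, against 15.2% with it. Markers of some other cell types also lay toward mTEC, with 7 of 9 tested myeloid and dendritic markers and 5 of 9 B cell markers at least 4-fold higher than in cTEC. Thymocyte markers had 2 of 11 at least 4-fold higher in mTEC than in cTEC and sums of 66.3, 22.1 and 20.5 RPKM in mTEC, cTEC and skinEC. Fibroblast and endothelial markers had 3 of 9 higher and sums of 125, 44.7 and 34.5 RPKM. The endothelial markers among them were split. Pecam1 (4.55 against 6.34 RPKM), Cdh5 (2.60 against 4.65) and Kdr (0.93 against 2.30) were lower in mTEC than in cTEC. Tek (9.40 against 0.676 RPKM) was higher.

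**Figure D5:**
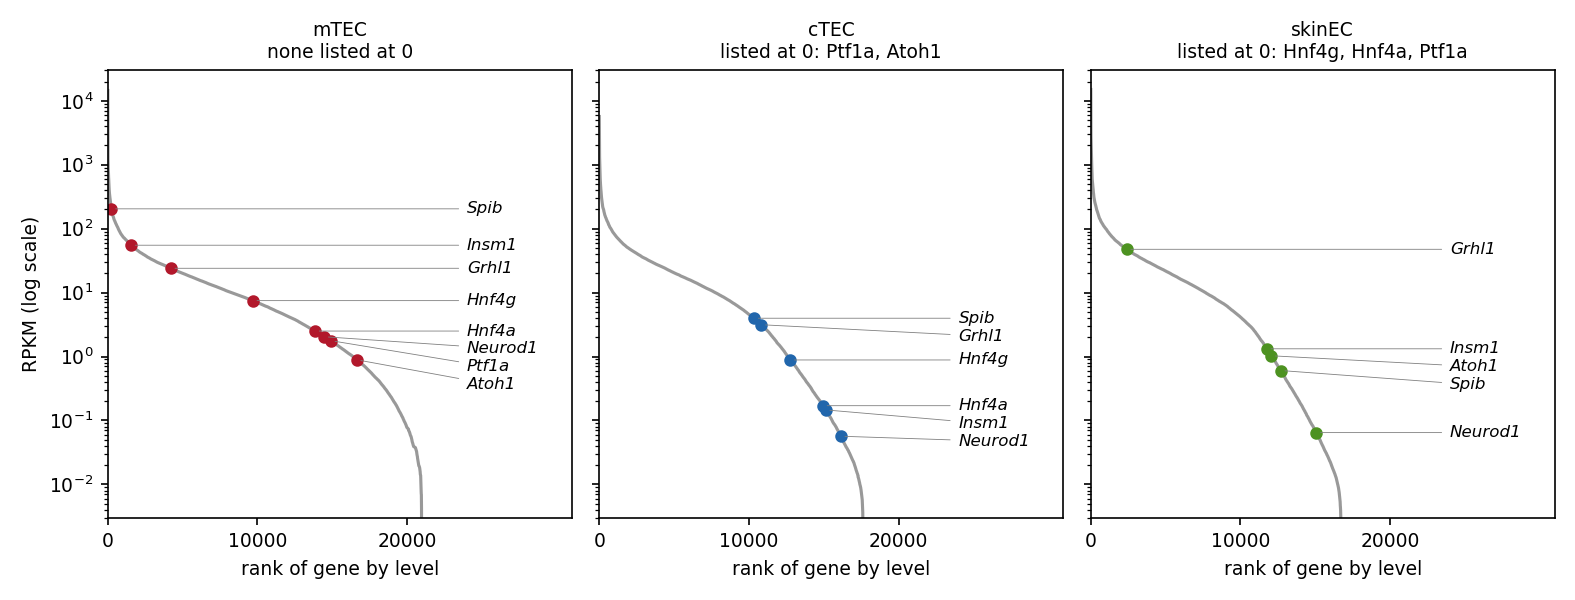
RPKM (log scale) of all entries above 0 against their rank in mTEC, cTEC and skinEC, with the lineage factor genes as points and those listed at 0 named above each panel. Spib is at rank 245 and Insm1 at rank 1557 in mTEC, and the highest member in cTEC, again Spib, is at rank 10352.

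The genes with the most similar levels were found by the distance between log2(RPKM + 1) values over the 3 libraries, among 14879 named genes. For Spib they were Cyp2a5, a cytochrome P450 gene, at 194, 4.14 and 0.24 RPKM in mTEC, cTEC and skinEC (distance 0.38), and Skint10 (distance 0.42). For Insm1 they were Pcp4, at 53.9, 0.0551 and 1.20 RPKM (distance 0.15), and Hal, the histidase gene (distance 0.29). For Grhl1 they were Ephb3, an Eph receptor gene, at 20.5, 3.29 and 44.9 RPKM (distance 0.24), and Aldh3b2 (distance 0.27). For Hnf4g they were Spdef, a goblet cell factor gene, at 7.63, 0.988 and 0.0491 RPKM (distance 0.11), and Lbp (distance 0.13). Hnf4a, Neurod1, Ptf1a and Atoh1 are low in all libraries, where many genes share a profile. Among their nearest genes were Irg1 and Bambi-ps1 for Hnf4a (distances 0.017 and 0.024), Sntg2 and Muc6 for Neurod1 (0.055 and 0.06), Neurod2 for Ptf1a (0.00037), and Scrg1 and Spdya for Atoh1 (0.086 and 0.22). With 3 libraries, likeness of levels is a description only.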

How the data were processed

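The authors deposited RPKM values per gene, 1 column per population, per the file headers. CASAVA 1.8.2 and the build mm9 stand in the submitters' processing notes, without their roles. A TruSeq RNA kit, which does not mark strand, was used, per the labels' protocols. For the aligner and annotation, nothing is given in the sources used here. Of 22663 rows, 54 repeats of a symbol were dropped, keeping the largest sum, and 12 entries whose symbol is a date or a number stay unnamed. 4 list symbols were matched by Entrez number. Mapped reads were estimated from 1107 olfactory, vomeronasal, trace amine and taste receptor genes with a single coding length in GENCODE M21. Within 0.02 reads, 79.6% of low values were whole in mTEC, 68.4% in cTEC (38 genes) and 45.5% in skinEC (11 genes). The cTEC and skinEC depths are less certain. They were searched only near the mTEC estimate, which set their closeness to it in advance. Read numbers per member use these depths and the longest M21 transcript and are approximate.

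Ratios are log2 of RPKM plus a pseudocount of 1, which understates differences of low genes. There is no test, since each population has 1 library. Members and lists were chosen with earlier results of these data known. From each list were named the up to 4 tested genes with the largest ratio of mTEC over cTEC in either direction and those 4-fold the other way, and for each member the 2 genes nearest in level. All relatives were named. Further list genes (Gp2, Sox8, Anxa5, Sis, Rbpjl, Amy2a5, Trp63, Krt1, Krt10, Pou4f3, Chga, Isl1) and the cell type markers given by name were chosen after their values were seen. Flg is not analysed here, and some genes that the rule names are not reported here. The ratio and depth steps were tested on simulated data. Alternatives were another pseudocount, filter, scaling, fold rule and choice among repeated rows. Python 3.11.15, numpy 2.4.6 and pandas 2.3.3 were used.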

Additional observations from a re-analysis of the deposited data

How the results depend on the processing

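No paired analysis was possible because each population has 1 library, and no replicate could be left out. Over 10 alternatives, 132 of 190 recomputed counts stayed within 1.5 times. Of 192 recomputed member ratios, 163 kept their side of 4-fold, 26 passed it under the alternative alone and 3 no longer did. Part of the 163 was fixed in advance. The filter cannot move a member ratio, and the choice among repeated rows left every member ratio as it was. A gene under 1 RPKM in every library cannot reach 4-fold with a pseudocount of 1 RPKM, so dropping the filter could change no count. No ratio past 4-fold changed sign. Under the TPM scale, that scale without the 50 largest genes and median ratio scaling, Atoh1 in mTEC over skinEC (-0.10) became 0.08, 0.04 and 0.13, and Neurod1 in cTEC over skinEC (-0.01) became 0.02, 0.0098 and 0.00011. The cause was not tested. Scaling also moved the median of all genes, for mTEC over skinEC from 0.16 up to 0.60 and for mTEC over cTEC from 0.08 up to 0.35.

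Members at least 4-fold higher in mTEC than in cTEC (4) numbered 8 with a pseudocount of 0.1 RPKM, 2 with 5 RPKM, 7 on the TPM scale with or without the 50 largest genes, 7 with a 2-fold rule and 2 with an 8-fold rule. Over skinEC (3) they numbered 6 with 0.1 RPKM, 6 on both TPM scales and 6 with a 2-fold rule. For cTEC over skinEC, members higher (0) numbered 2 with 0.1 RPKM, 1 on both TPM scales and 1 with a 2-fold rule, and members lower (1) numbered 3 with 0.1 RPKM and 3 with a 2-fold rule.

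With 0.1 RPKM, all genes higher numbered 4554 in mTEC over cTEC, 5030 in mTEC over skinEC and 1989 in cTEC over skinEC, where 1490 were lower. With 5 RPKM, those higher and lower numbered 881 and 221, 1020 and 373, and 445 and 471 in that order of comparisons. On the TPM scale, 4321 were higher in mTEC over skinEC and 1642 in cTEC over skinEC. Without the 50 largest genes those higher were 3984, 4683 and 1668. With median ratio scaling 434 were lower in mTEC than in skinEC. A 2-fold rule gave 5203 higher and 1834 lower, 5736 and 2812, and 2596 and 2418. An 8-fold rule gave 1204 and 122, 1464 and 194, and 507 and 447.

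Merkel cell genes higher in mTEC than in cTEC (2) numbered 5 with 0.1 RPKM and 4 on both TPM scales and with a 2-fold rule. With 5 RPKM, microfold genes numbered 6, enterocyte and hepatocyte genes 11, acinar genes 6, keratinocyte genes 9, secretory genes 4 and endocrine genes 7. With an 8-fold rule, enterocyte and hepatocyte genes numbered 14, acinar genes 7, secretory genes 4 and endocrine genes 9. Values under 3 RPKM limit what can be said of Hnf4a, Neurod1, Ptf1a and Atoh1.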

Other observations

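Factors of further mimetic lineages were read beside the members. Of 20 such genes, 19 reached 1 RPKM in mTEC, 8 reached it in cTEC and 4 in skinEC. Of 19 tested, 13 were at least 4-fold higher in mTEC than in cTEC and 0 lower, with a median log2 ratio of 2.32. Myog, the factor of muscle differentiation, was at 56.4 in mTEC and 0.0716 RPKM in cTEC and is listed at 0 in skinEC. Gfi1b, a factor of blood cells and tuft cells, was at 11.2 in mTEC and 0.249 RPKM in cTEC and is listed at 0 in skinEC. Foxj1, the factor of ciliated cells, was at 38.3, 6.14 and 0.0208 RPKM in mTEC, cTEC and skinEC. Foxi1, the factor of ionocytes, was at 7.87 in mTEC and 0.128 RPKM in cTEC and is listed at 0 in skinEC.

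Some lineage factors had their highest level outside mTEC. Pou2f3, known from tuft cells and from the epidermis, was at 64.7 RPKM in mTEC, 21.3 RPKM in cTEC and 182 RPKM in skinEC, and Trp73, known from ciliated cells, was at 3.85, 2.18 and 32.8 RPKM in the same order. The pair differs from the members other than Grhl1 and Atoh1, which were lower in skinEC than in mTEC. Gcm2, the parathyroid factor, was at 1.14 in mTEC and 0.497 RPKM in cTEC and is listed at 0 in skinEC.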
